A study of Mus musculus with 27 samples.

Results

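Extracellular signal-regulated kinase (ERK), the last kinase of the RAS-RAF-MEK cascade, switches on genes that hold it back and genes that feed it. The 10 genes described here were chosen by name from both sides, with earlier results of these data known. Shares over all genes are therefore given for description only. The 10 include the ERK phosphatases Dusp4, Dusp5 and Dusp6 and the inhibitors Spry1, Spry2, Spry4 and Spred1, which act upstream of ERK. The others are the ligands Hbegf, Ereg and Areg of the epidermal growth factor (EGF) family. All 10 were found among the 20446 genes of the table, and all 10 were among the 12687 genes with enough reads to be tested.

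The feedback works at several levels. Growth factor receptors activate RAS and through it ERK. Sprouty proteins and SPRED1 dampen the signal near RAS and RAF, and dual-specificity phosphatases (DUSPs) remove the phosphates that make ERK active. HB-EGF, epiregulin and amphiregulin are made as membrane-bound precursors, cut loose by metalloproteases, and bind ERBB receptors on the same or neighbouring cells. In cultured muscle cells, growth factors acting through ERK sustain dividing myoblasts and hold back their fusion.

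The cells were C2C12, an established line of mouse myoblasts whose cells fuse into myotubes once serum is withdrawn. All groups shared the same handling: growth in 10% FBS, differentiation in 2% horse serum and a 2 h pulse of 50% horse serum, which aligns the circadian clocks of cultured cells. The groups were the 9 time points of 12, 18, 24, 30, 36, 42, 48, 54 and 60 h after the pulse, with 3 libraries of total RNA freed of ribosomal RNA at each, 27 in all. A culture without the pulse and time points before 12 h were not analysed here, so a response to the pulse itself could not be separated from continued differentiation or time in culture. The line is a single cell source, and the labels do not say whether each library had a culture of its own. The p-values therefore measure the spread between these libraries, part of which may be technical.

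Depth was 15.2 to 26.6 M counted reads per library (median 20.9 M). No pair of libraries within a time point agreed to within sampling noise (lowest chi-square per degree of freedom 5.66), and each counted as 1 replicate. The myotube markers together stood at 12900 to 15300 CPM (counts scaled to library size), with 9 of 9 tested, and the proliferation markers at 689 to 1220 CPM. The markers of immune and endothelial cells summed to 1.19 to 2.55 CPM, with 2 of 7 tested, and those of epithelium to 2.28 to 4.56 CPM, with 1 of 4 tested. Epcam had 3 reads and Krt18 2 reads in all 27 libraries, and Ptprc had 20. In bulk RNA, more cells of a type and more RNA per cell cannot be told apart.

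The libraries numbered 2 stood apart. Library 2 had the lowest level at all 9 time points for 12% of genes tested and the highest for 6.87%. Dusp4, Spry2 and Spry4 were lowest in library 2 at 9 of 9 time points, Hbegf was highest in it at 9 of 9 and Areg at 8 of 9. Spred1 was highest in library 1 at 9 of 9, a pattern that 0.158% of genes tested had. Results for any change, trend, rhythm and alternation are therefore given also without the 9 libraries numbered 2 where that changes a call. The comparisons of 60 h and of 18 h with 12 h were not refitted without these 9 libraries.

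Promoter sequence in the RefSeq table (GRCm38.p6) was searched for 6 of the 10 genes: Dusp5, Dusp6, Spry1, Spry2, Spred1 and Areg. Dusp4 and Ereg had no entry, and Spry4 and Hbegf were left out of the search by rule. The 250 bases before each RefSeq start were searched on both strands for the serum response element core (CArG box), the cyclic AMP response element TGACGTCA and its core TGACG, which the full element contains, the AP-1 site TGACTCA or TGAGTCA, the ETS core CCGGAA, the E-box CACGTG of clock and MYC proteins, the TEAD site GGAATG and the TATA box TATAAA. Dusp5 and Areg are shown because they held the most matches of these 6 genes. They are a pair whose levels did not follow each other over the 27 libraries. Each stretch is 120 bases on the plus strand, 5′ to 3′, ending just before the annotated gene, chr19:53528989-53529108 for Dusp5 and chr5:91139479-91139598 for Areg, with matches in capitals.
Dusp5: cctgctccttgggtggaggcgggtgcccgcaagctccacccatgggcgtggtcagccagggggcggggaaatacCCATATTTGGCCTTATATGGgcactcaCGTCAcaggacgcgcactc
Areg: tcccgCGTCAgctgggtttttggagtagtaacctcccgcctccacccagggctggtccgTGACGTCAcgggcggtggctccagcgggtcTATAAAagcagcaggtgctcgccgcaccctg

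In Dusp5, 2 CArG boxes lay end to end, from 82 to 73 and from 72 to 63 bases before the RefSeq start. A TGACG core read on the other strand followed. The window searched for Dusp5 ends at chr19:53529144, past the end of the stretch shown. Its positions are therefore not counted from the end of that stretch. In Areg, a full cyclic AMP response element lay 61 to 54 bases and a TATA box 31 to 26 bases before the start. A CArG box occurred in 1.47% of the 32851 RefSeq windows of the same length, the full cyclic AMP response element in 1.55%, its core in 17.8% and the TATA box in 12.4%. Spry1 held 1 TEAD site (12.6% of windows), and the windows of Dusp6, Spry2 and Spred1 held none of the motifs searched, which include the AP-1 site (4.46% of windows), the ETS core (12%) and the E-box (6.02%). These are matches of letters in a short window, not shown to be bound in these cells.

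Across the course, 6 of the 10 genes changed at any point, 5 rose along the course and none fell, all 10 fitted trends being above 0. Hbegf rose most by the fitted trend, and the phosphatases Dusp6 and Dusp4 rose with it. Ereg alternated up and down on top of a fitted upward trend that some alternative fits did not call. In edgeR's quasi-likelihood test with the time point as a factor, Dusp4, Dusp5, Dusp6, Spry1, Hbegf and Ereg passed at an adjusted p under 0.05, as did 18.4% of all genes tested. The range of the time point means on the log2 scale had a median of 0.55 over the 10 genes and 0.31 over all genes tested. In the linear trend, fitted with a 24 h wave and given as log2 change per 48 h, Dusp4, Dusp6, Spry4, Hbegf and Ereg passed upwards, against 10.7% of all genes upwards and 8.69% downwards. These tests use the same libraries, so their calls are not independent of each other. The median trend was 0.325 over the 10 genes and -0.0143 over all genes tested.

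**Figure D1:**
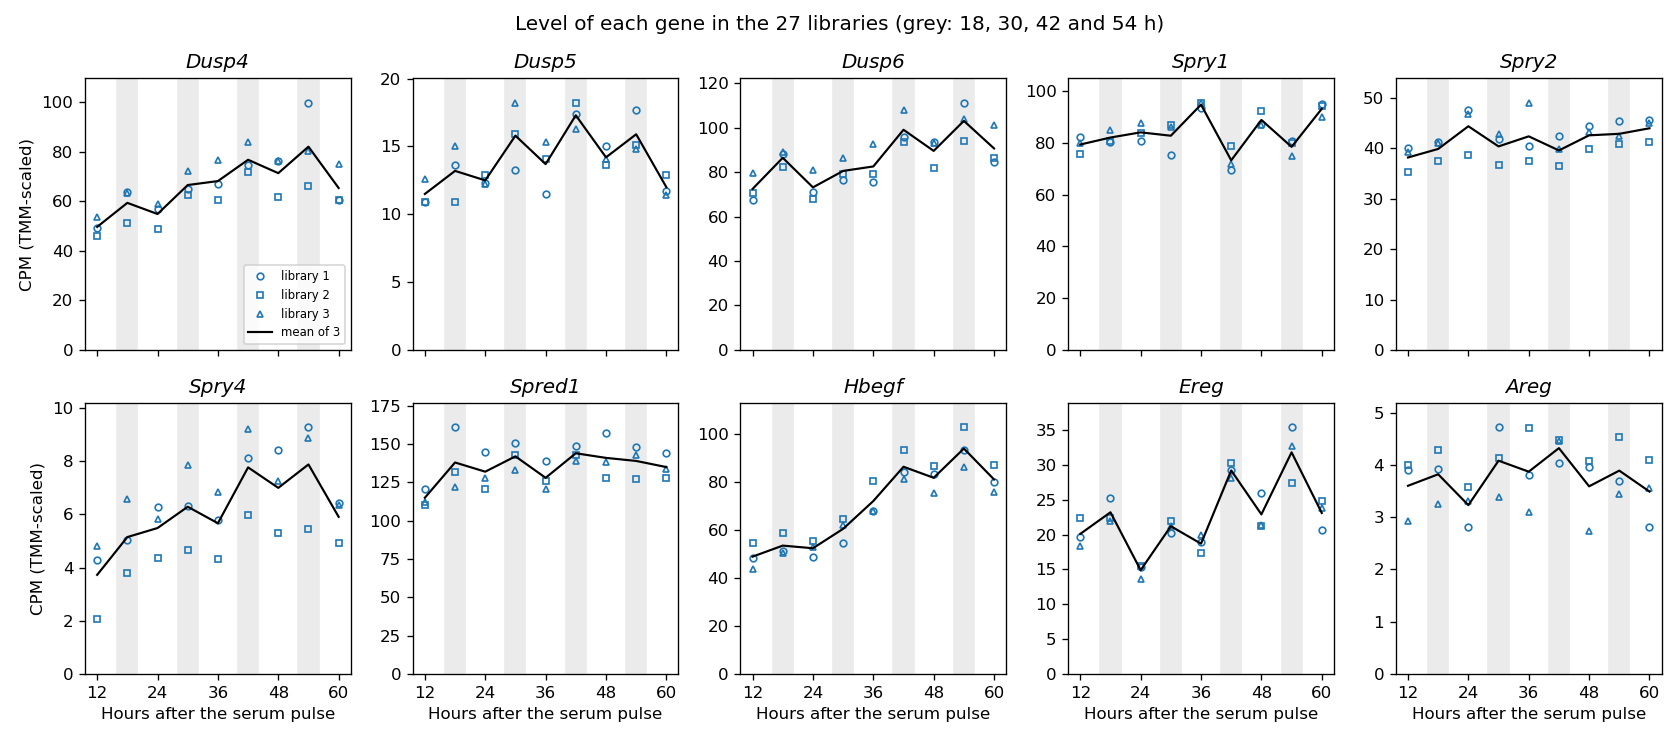
Level of each gene in CPM (y axis, from 0) against hours after the serum pulse (x axis). Open symbols are the 27 libraries by library number, the line joins the means of 3, and grey bands mark 18, 30, 42 and 54 h. Hbegf climbs from a mean of 49 CPM at 12 h to 94.1 CPM at 54 h, and Ereg is higher in each grey band than at the time points beside it.

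Among the phosphatases, Dusp6, a cytoplasmic enzyme that acts on ERK, was the most abundant by reads. Its 3 libraries stood at 67.2, 70.4 and 79.7 CPM at 12 h, at 87.9, 82.2 and 89.1 at 18 h, and at 70.9, 67.8 and 80.7 at 24 h. It was at 76.2, 78.9 and 86.3 CPM at 30 h, at 75.4, 79.3 and 92.7 at 36 h, and at 95.9, 93.4 and 108 at 42 h. The last 3 time points gave 93.6, 81.8 and 93 CPM at 48 h, 111, 93.8 and 104 at 54 h, and 84.4, 86.2 and 101 at 60 h. Every library of 42 and 54 h was thus above every library of 12, 24 and 30 h. Dusp6 rose by 0.43 ± 0.09 on the log2 scale per 48 h (SE, 27 libraries; edgeR adjusted p = 0.000993), and its highest time point mean was 1.42 times its lowest. The trend missed the threshold in the fit on the 9 time point means, which has few residual degrees of freedom (0.42, limma adjusted p = 0.061).

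Dusp4, a nuclear phosphatase of ERK and other MAP kinases, rose as well. It was at 49.3, 46.1 and 53.6 CPM at 12 h, at 63.7, 51.1 and 63.3 at 18 h, and at 57, 49 and 58.8 at 24 h. Levels of 65, 62.7 and 72.1 CPM followed at 30 h, 67, 60.7 and 76.8 at 36 h, and 74.6, 71.8 and 84 at 42 h. The course closed at 76.5, 61.6 and 76.2 CPM at 48 h, 99.7, 66.4 and 80.2 at 54 h, and 60.6, 60.4 and 75.1 at 60 h. The 54 h libraries spread widely, but all 3 lay above all 3 of 12 h. The trend was 0.53 ± 0.12 per 48 h (adjusted p = 0.00253), and it missed the threshold without the 12 h libraries (0.42, adjusted p = 0.104) and on time point means (0.52, adjusted p = 0.0794). The call for any change in Dusp4 was also lost without the 12 h libraries (adjusted p = 0.0801).

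Dusp5, a nuclear phosphatase specific to ERK, was less abundant and was higher in the middle of the course than at its ends. Its libraries were at 10.9, 10.9 and 12.6 CPM at 12 h, 13.6, 10.9 and 15 at 18 h, 12.3, 12.9 and 12.2 at 24 h, 13.3, 15.9 and 18.2 at 30 h, and 11.5, 14.1 and 15.3 at 36 h. Later they were at 17.4, 18.2 and 16.3 CPM at 42 h, 15, 13.6 and 14.1 at 48 h, 17.7, 15.1 and 14.8 at 54 h, and 11.7, 12.9 and 11.4 at 60 h. The 42 h libraries did not overlap those of 12, 24, 36, 48 or 60 h, and 60 h was back within 1.05 times the 12 h mean. Dusp5 changed over the course (range of time point means 0.59 log2, adjusted p = 0.00713), with no trend past the threshold (0.22 ± 0.14, adjusted p = 0.289). Without the 60 h libraries the trend passed (0.51, adjusted p = 0.0182), and without the libraries numbered 2 the call for any change was lost (adjusted p = 0.121).

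Of the Sprouty genes, which encode membrane-associated inhibitors of receptor tyrosine kinase signalling, Spry4 had the widest range and Spry1 the most uneven course. Spry4 was the weakest of the 10 by reads per length and rested on 42 to 217 counts per library. It stood at 4.29, 2.07 and 4.83 CPM at 12 h, 5.05, 3.8 and 6.6 at 18 h, 6.28, 4.35 and 5.84 at 24 h, 6.33, 4.66 and 7.87 at 30 h, and 5.81, 4.34 and 6.86 at 36 h. From 42 h on it was at 8.11, 5.97 and 9.22 CPM, then 8.44, 5.3 and 7.27 at 48 h, 9.28, 5.47 and 8.88 at 54 h, and 6.44, 4.93 and 6.37 at 60 h. All 3 libraries of 42 h and of 54 h lay above all 3 of 12 h, with library 2 the low value at each time point. Spry4 rose by 0.73 ± 0.22 per 48 h (adjusted p = 0.0182). This call was lost without the 12 h libraries (0.56, adjusted p = 0.202) and without library 2 of 12 h alone (adjusted p = 0.0558). For any change Spry4 missed the threshold (range 1.05 log2, adjusted p = 0.138), but it passed without the libraries numbered 2 (range 0.99 log2, adjusted p = 0.00789) and in DESeq2 (adjusted p = 0.0324).

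Spry1, which is known for holding muscle stem cells in quiescence, was low at 42 and 54 h, where 8 of the 10 genes had their highest means. Its libraries read 82.2, 75.6 and 80 CPM at 12 h, 80.4, 80.8 and 84.9 at 18 h, 80.7, 83.7 and 87.6 at 24 h, and 75.2, 86.9 and 85.9 at 30 h. They then stood at 93.5, 95.3 and 95.3 CPM at 36 h, 69.3, 78.8 and 71.6 at 42 h, 87.3, 92.2 and 87 at 48 h, 80.5, 80 and 74.7 at 54 h, and 95, 94.3 and 90.1 at 60 h. All libraries of 36, 48 and 60 h were above all libraries of 42 and 54 h. Spry1 changed over the course (range 0.37 log2, adjusted p = 0.00114) with no trend past the threshold (0.09 ± 0.08, adjusted p = 0.458).

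Spry2 and Spred1 varied least, with a highest mean 1.16 and 1.25 times the lowest. Spry2, the Sprouty best known for feedback on FGF and EGF receptors, had time point means between 38.2 CPM at 12 h and 44.4 CPM at 24 h, and its libraries ranged from 35.3 to 49 CPM. Spred1, which brings the RAS inhibitor neurofibromin to the membrane, had means between 115 CPM at 12 h and 144 CPM at 42 h, with libraries from 110 to 161 CPM. Neither passed the test for any change (adjusted p = 0.692 for Spry2 and 0.227 for Spred1) or for a trend (0.12 ± 0.07 and 0.17 ± 0.08, adjusted p = 0.297 and 0.133).

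Hbegf, whose product binds the EGF receptor and ERBB4, had the largest trend of the 10. The early libraries were at 48.3, 54.7 and 44 CPM at 12 h, 51.3, 58.8 and 50.7 at 18 h, and 48.8, 55.6 and 53 at 24 h. Levels then went to 54.6, 64.9 and 62.3 CPM at 30 h, 67.9, 80.6 and 68.2 at 36 h, and 84.3, 93.7 and 81.4 at 42 h. They ended at 83.4, 86.7 and 75.5 CPM at 48 h, 93.5, 103 and 86.3 at 54 h, and 80.3, 87.4 and 75.9 at 60 h. Every library from 36 h on was above every library of 12, 18, 24 and 30 h. The time point means lay between 49 and 53.6 CPM up to 24 h and between 81.2 and 94.1 CPM from 42 h on. Hbegf rose by 0.99 ± 0.10 per 48 h (adjusted p = 5.99e-08), with a highest mean 1.92 times the lowest. It was the 1 gene of the 10 whose trend passed in every alternative fit (largest adjusted p = 0.0104, on time point means), including the 27 fits that left out 1 library each (0.95 to 1.06, largest adjusted p = 4.07e-07).

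Ereg, which encodes epiregulin, had the widest range of the ligands and rose unevenly. Its libraries were at 19.6, 22.4 and 18.3 CPM at 12 h, 25.3, 22.4 and 21.9 at 18 h, and 15.4, 15.5 and 13.7 at 24 h. At 30 h they were at 20.3, 21.9 and 21.3 CPM, at 36 h at 18.9, 17.3 and 19.9, and at 42 h at 29.2, 30.2 and 28.1. The late values were 25.9, 21.3 and 21.4 CPM at 48 h, 35.4, 27.4 and 32.7 at 54 h, and 20.7, 24.8 and 23.8 at 60 h. All 3 libraries of 42 h were above all 3 of 36 h and of 48 h, and the same held for 30 h against 24 and 36 h and for 54 h against 48 and 60 h, while the libraries of 18 and 12 h overlapped. The mean of 54 h, 31.8 ± 4.05 CPM (SD, n = 3), was 2.14 times that of 24 h, 14.9 ± 1.02 CPM. Ereg changed over the course (range 1.1 log2, adjusted p = 1.03e-06) and rose by 0.57 ± 0.17 per 48 h (adjusted p = 0.0198). That trend missed the threshold without the 12 h libraries (0.68, adjusted p = 0.0642), without the libraries numbered 2 (0.63, adjusted p = 0.067) and on time point means (adjusted p = 0.296). At 60 h against 12 h, Ereg missed the threshold as well (0.20 ± 0.10, edgeR adjusted p = 0.229).

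Areg, which encodes amphiregulin and lies 45952 bases from Ereg on the same strand, passed no test. Its 27 libraries ranged from 2.73 to 4.72 CPM on 59 to 121 counts, with the lowest mean at 24 h (3.23 ± 0.387 CPM) and the highest at 42 h (4.32 ± 0.254 CPM). The test for any change gave an adjusted p of 0.867 and the trend was 0.06 ± 0.15 (adjusted p = 0.847).

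The ends of the course lie 48 h apart, so a wave of exactly 24 h and constant size adds nothing to their difference. A wave that shrinks over time or has another period could add to it, which was not tested. Of the 10 genes, 4 were higher at 60 h than at 12 h and none was lower, the 1 value below 0 being that of Areg (-0.04 ± 0.19, adjusted p = 0.935). Of all genes tested, 9.48% were higher and 6.54% lower. Hbegf was 1.66 times as high (log2 0.73 ± 0.10, adjusted p = 8.21e-06), and this passed with each library left out. Dusp6 (0.32 ± 0.10, adjusted p = 0.0238), Dusp4 (0.40 ± 0.13, adjusted p = 0.0457) and Spry1 (0.23 ± 0.06, adjusted p = 0.0119) passed by less. Dusp4 missed the threshold in 20 of the 27 fits that left out 1 library (largest adjusted p = 0.273). Dusp6 did so in 3, without library 1 or 2 of 12 h (adjusted p = 0.13 and 0.0907) or library 3 of 60 h (0.182), and Spry1 in 2, without library 2 of 12 h (0.0724) or library 1 of 60 h (0.055).

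By the libraries themselves, all 3 of 60 h lay above all 3 of 12 h in 7 of the 10 genes, namely Dusp4, Dusp6, Spry1, Spry2, Spry4, Spred1 and Hbegf. Of all genes tested, 16.7% had this order. For 7 genes the lowest time point mean was that of 12 h, against 24.7% of all genes. The highest mean fell at 42 or 54 h for 8 genes, all but Spry1 and Spry2, against 21.5% of all genes. The proliferation markers were also higher at the end as a sum, with 689 to 771 CPM at 12 h and 831 to 874 CPM at 60 h. Of the 6 genes, 4 passed the threshold, while Top2a (0.05 ± 0.10, adjusted p = 0.81) and Cdk1 (0.16 ± 0.16, adjusted p = 0.593) did not. The part of the proliferation markers in the differences of the 10 genes was not tested.

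The first step, from 12 to 18 h, gave no call among the 10 genes, against 2.78% of all genes tested higher and 2.3% lower. At an unadjusted p under 0.05 it gave 2, Spred1 (0.27 ± 0.10, adjusted p = 0.124) and Dusp6 (0.25 ± 0.10, adjusted p = 0.173). DESeq2 and limma-voom also called none. With the replicate number as a block, which the labels do not say is a pairing, edgeR called Dusp4, Dusp6, Spry4 and Spred1. All 10 values were above 0, with a median of 0.204 against 0.0052 over all genes tested, and all 10 share the same 3 libraries of 12 h. The proliferation markers were higher at the same step in 5 of 6 genes, among them Ccna2 (0.70 ± 0.07, adjusted p = 1.82e-06) and Mki67 (0.61 ± 0.11, adjusted p = 0.000951), and their part in the values of the 10 genes was not tested.

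None of the 10 genes passed edgeR's test for a 24 h rhythm, the pattern a serum pulse is used to reveal. Only 0.0552% of all genes tested passed that test, 7 genes. None of the 10 reached an unadjusted p of 0.05, and DESeq2 and limma-voom called none. The largest fitted swing from peak to trough was that of Spry4 (0.35 ± 0.19 log2), and the median swing of the 10 genes was 0.116 against 0.0987 over all genes tested.

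Ereg alone of the 10 genes passed the test for alternation between consecutive time points. Comparing 18, 30, 42 and 54 h with 12, 24, 36, 48 and 60 h in 1 model with the trend and the 24 h wave, Ereg passed upwards, as did 0.544% of all genes tested, while 0.229% passed downwards and none of the 10 did. With samples 6 h apart, a 12 h wave and any other difference between these alternate time points cannot be told apart.

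Ereg was higher at the 4 time points by 0.41 ± 0.07 log2 (adjusted p = 0.00476), and by 0.42, 0.34, 0.50 and 0.47 at 18, 30, 42 and 54 h against the mean of the time points 6 h before and after. The call held with each of the 27 libraries left out (adjusted p from 0.00153 to 0.0134) and without the libraries numbered 2 (adjusted p = 0.0447). It was lost without the 60 h libraries (0.36, adjusted p = 0.0517) and when the 9 time point means were the replicates (0.42, adjusted p = 0.503). That last fit called no gene at all for alternation.

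Of the other 9 genes, 7 had an unadjusted p under 0.05, and 8 of the 10 did in all, against 9.48% of all genes. The values were 0.27 ± 0.07 for Dusp5 (adjusted p = 0.0543), 0.20 ± 0.07 for Dusp4 (0.261), 0.18 ± 0.05 for Dusp6 (0.074), 0.20 ± 0.09 for Areg (0.472), 0.12 ± 0.06 for Hbegf (0.52) and 0.11 ± 0.04 for Spred1 (0.427). Spry1 had the opposite sign, -0.15 ± 0.04 (adjusted p = 0.11). DESeq2 called Dusp5 (adjusted p = 0.0155), Dusp6 (0.0319) and Spry1 (0.0445) besides Ereg. The remaining 2 genes, Spry4 (0.26 ± 0.13) and Spry2 (-0.06 ± 0.05), did not reach an unadjusted p of 0.05.

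**Figure D2:**
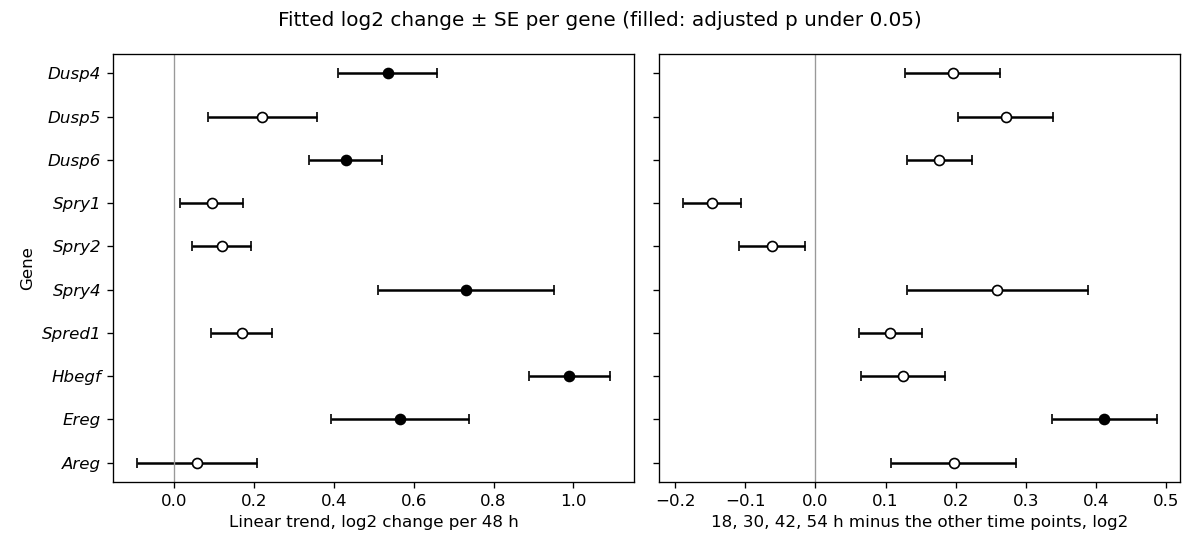
Fitted linear trend per 48 h (left) and difference between 18, 30, 42 and 54 h and the other time points (right), both as log2 change on the x axis, for each gene (y axis), with bars of 1 SE. Filled points passed at an adjusted p under 0.05: 5 genes for the trend, with Hbegf farthest out at 0.99, and Ereg alone for the alternation at 0.41.

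Taken time point by time point, 7 genes, Dusp4, Dusp5, Dusp6, Spry4, Spred1, Ereg and Areg, had all 4 of the alternate means above the mean of their neighbours, against 17% of all genes tested. Spry2 had all 4 below (-0.04, -0.10, -0.10 and -0.01 log2), against 14.9% of all genes. Spry1 was level at 18 h (0.01) and lower at the later 3, with differences of -0.11, -0.33 and -0.21. The largest upward differences after those of Ereg were 0.31 for Dusp5 at 42 h and 0.30 for Spry4 at 42 h. The proliferation markers summed to 737 to 1220 CPM at the alternate time points and 689 to 962 CPM at the others, and the myotube markers to 12900 to 15300 and 12900 to 14800 CPM. No gene of either list passed the test for alternation in edgeR, DESeq2 or limma-voom, and 1 myotube marker and 0 proliferation markers had an unadjusted p under 0.05. Their part in the pattern was not tested.

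**Figure D3:**
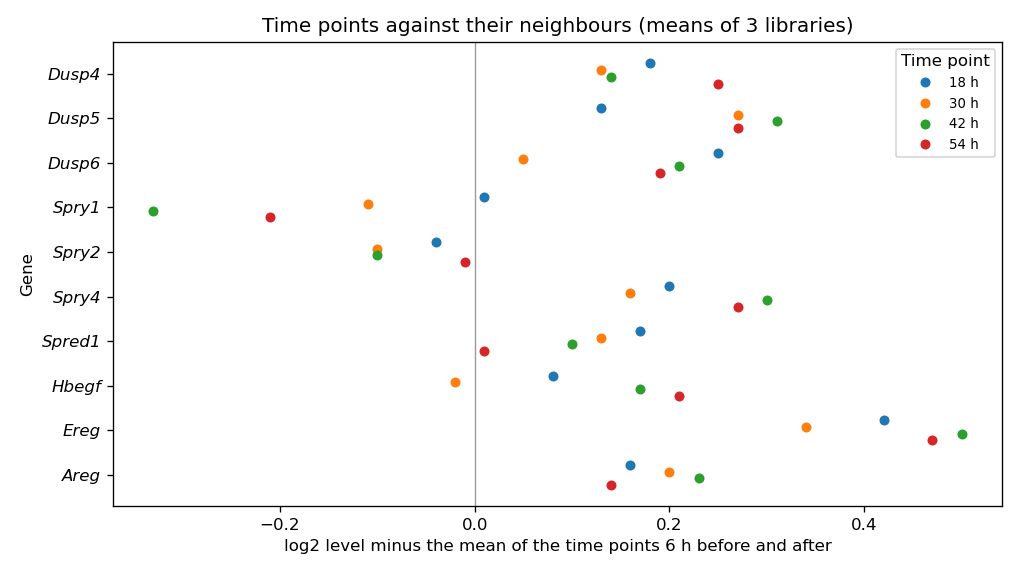
Mean log2 level of 18, 30, 42 and 54 h minus the mean of the time points 6 h before and after (x axis), per gene (y axis), 1 colour per time point. All 4 points of Ereg lie between 0.34 and 0.50, those of 6 other genes lie above 0, and Spry1 reaches -0.33 at 42 h.

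Per kb of exon (GENCODE M21, mean ± SD over 27 libraries), the levels ran in the order Spry1 (28.9 ± 2.55 CPM per kb), Dusp6 (27.6 ± 3.75), Dusp4 (24.1 ± 4.43), Spry2 (19.9 ± 1.70), Spred1 (19.9 ± 1.91), Hbegf (14.5 ± 3.47), Dusp5 (5.66 ± 0.915), Ereg (5.52 ± 1.27), Areg (3.10 ± 0.486) and Spry4 (1.28 ± 0.371). The ranges over libraries of neighbours in this order overlapped, except between Hbegf and Dusp5 and between Areg and Spry4. Hbegf was therefore the most abundant of the 3 ligands in every library, and Spry4 the least abundant of the 3 Sprouty genes shown.

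The 10 genes did not all follow each other. Over the 27 libraries, which share the time course and the library numbers, the Pearson correlation of log2 level had a median of 0.35 over 45 pairs, and 35 pairs were above 0. It was highest between Dusp4 and Dusp6 (0.88) and between Dusp4 and Spry4 (0.86), and Ereg was closest to Dusp6 (0.77). The ligands were less alike, at 0.65 for Hbegf and Ereg, 0.35 for Ereg and Areg and 0.34 for Hbegf and Areg. Dusp5 and Areg, whose promoter letters are shown above, were at 0.17, and the lowest value was that of Spry2 and Areg (-0.59), genes at opposite ends in library 2.

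The genes most like Dusp6 over the same 27 libraries were Wwc2 (Pearson correlation 0.906), Htr1b (0.898), Vgll2 (0.875), Lif (0.862) and Klhdc8a (0.861). Lif encodes a cytokine and Htr1b a serotonin receptor. Lif went from a mean of 7.47 CPM at 12 h to 13.8 CPM at 60 h, with a trend of 0.99 ± 0.22 (adjusted p = 0.00166). The genes most like Hbegf were Golm1 (0.952), Mcam (0.943), Pxdc1 (0.943), Smim3 (0.936) and Pgf (0.935). Mcam encodes a cell adhesion molecule and Pgf placental growth factor, a relative of VEGF. Pgf went from 16.9 to 30.7 CPM, with a trend of 1.04 ± 0.14 (adjusted p = 2.55e-06).

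Elsewhere in the pathway, no ERBB receptor passed upwards. The counts of changed genes below stand beside 18.4% of all genes tested. Of the 4 ERBB receptors, 3 were tested and 1 changed: Erbb3, a receptor of neuregulins with little kinase activity of its own, fell from 222 ± 13.8 CPM at 12 h to 170 ± 13.2 CPM at 60 h (trend -0.42 ± 0.06, adjusted p = 7.52e-06). Erbb4 had 1 read in all 27 libraries. Of the 8 other ligands of the family, 5 were tested, and Egf alone changed (edgeR adjusted p = 0.0282, while DESeq2 called none of the 5). Its trend was 0.65 ± 0.16 (adjusted p = 0.00386) and its mean at 60 h 1.53 CPM. The neuregulins Nrg2, Nrg3 and Nrg4 had 2, 1 and 28 reads in all.

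Among 5 genes of ligand shedding, Timp3, an inhibitor of the sheddase ADAM17, rose from 278 ± 16.2 CPM at 12 h to 897 ± 56.9 CPM at 60 h (trend 1.79 ± 0.11, adjusted p = 1.65e-11). Rhbdf1, which helps ADAM17 mature and was picked out after its values were seen, rose by 0.33 ± 0.12 (adjusted p = 0.0491), and no gene of the list fell. The median trend over the list was 0.24, with Adam10 at -0.09 and Adam17 at -0.03.

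Of 8 other ERK feedback genes, 7 were tested and 3 changed, in different directions, against 18.4% of all genes tested. Errfi1, an inhibitor of the EGF receptor, was at 107 CPM at 12 h and 141 CPM at 60 h (60 h against 12 h, 0.39 ± 0.06, adjusted p = 7.24e-05). The trend of Errfi1 missed the threshold (0.26 ± 0.09, adjusted p = 0.0517). Il17rd, also called SEF, rose from 27.5 to 42.2 CPM (trend 0.46 ± 0.11, adjusted p = 0.00361), and the ERK phosphatase Dusp9 fell from 5.73 to 3.27 CPM (trend -0.47 ± 0.14, adjusted p = 0.0131). Spry3 had 0 reads. None of the 5 other MAP kinase phosphatases passed the test for any change in edgeR, DESeq2 or limma-voom, and 0 had an unadjusted p under 0.05. Dusp1, an immediate early phosphatase, was nearest (edgeR adjusted p = 0.334).

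In the list of FGFs and their receptors, 9 of 10 genes were tested and 5 changed, against 18.4% of all genes tested. Fgf21, a hormone of metabolic stress, fell from 27.3 to 4.06 CPM (trend -3.05 ± 0.24, adjusted p = 1.04e-09). Fgf2, a growth factor of myoblasts, rose from 40.3 to 68.7 CPM (0.69 ± 0.08, adjusted p = 7.71e-07), and Fgf1 from 0.739 to 1.69 CPM (0.82 ± 0.23, adjusted p = 0.00947). Fgfr2 changed with no trend past the threshold, and Fgfrl1, picked out after its values were seen, rose by 0.25 ± 0.06 (adjusted p = 0.00328).

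Of the 22 genes of the cascade itself, all tested, 3 changed, against 18.4% of all genes tested. Rasa1, which switches RAS off, rose from 285 to 410 CPM (trend 0.57 ± 0.06, adjusted p = 4.74e-08), while the adaptors Shc1 and Grb2 changed without a trend past the threshold. At 60 h against 12 h, Shc1 was higher (0.31 ± 0.06, adjusted p = 0.000403) and Grb2 missed the threshold (0.08 ± 0.06, adjusted p = 0.416). Nras, picked out after its values were seen, fell by 0.17 ± 0.05 (adjusted p = 0.0312). The median trend of the cascade was 0.05.

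Of 11 other genes known to respond to ERK, 5 changed, against 18.4% of all genes tested. Ier3 (26.3 to 41.2 CPM, trend 0.83 ± 0.08, adjusted p = 4.3e-08) and the ETS factor Etv4 (33.1 to 39.7 CPM, 0.62 ± 0.14, adjusted p = 0.00249) rose, and the ephrin receptor Epha4 fell (24 to 20 CPM, -0.32 ± 0.09, adjusted p = 0.0125). Ccnd1, which encodes cyclin D1, changed without a trend past the threshold and was lower at 60 h than at 12 h (-0.18 ± 0.06, adjusted p = 0.0325). Phlda1 and Plaur were picked out after their values were seen. Phlda1 rose by 0.59 ± 0.15 (adjusted p = 0.00556), and Plaur, the urokinase receptor, was the fifth gene that changed. Epha4 and Plaur were higher at the alternate time points, like Ereg, by 0.22 ± 0.04 (edgeR adjusted p = 0.00551) and 0.31 ± 0.06 (edgeR adjusted p = 0.00783). They were the only such calls by edgeR in these lists. For alternation DESeq2 called 2 genes of this list, 1 of the other ERK feedback genes and 1 of the FGF list.

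Of 9 immediate early genes, 2 changed in edgeR, 4 in DESeq2 and 3 in limma-voom, where 18.4% of all genes tested changed in edgeR. Those 2 were Egr2 (20.9 to 44 CPM, trend 0.95 ± 0.18, adjusted p = 0.000268) and Srf, whose product binds the CArG box (54.1 to 75.3 CPM, 60 h against 12 h 0.48 ± 0.14, adjusted p = 0.0201). For Srf the trend missed the threshold (0.41 ± 0.15, adjusted p = 0.0561). The trend passed upwards in 3 of the 9, Egr2 and, picked out after their values were seen, Junb (0.44 ± 0.11) and Ier2 (0.34 ± 0.11), and downwards in none. Of the 9 myotube markers, 2 had a trend past the threshold upwards and 1 downwards, with a median of -0.2. Myog, the myogenic factor of early differentiation, fell from 744 to 420 CPM (trend -0.91 ± 0.06, adjusted p = 6.82e-11). Myh3, embryonic myosin, rose from 2740 to 3130 CPM (0.30 ± 0.08, adjusted p = 0.0099). Actn2, picked out after its values were seen, rose from 48.9 to 60.4 CPM (0.31 ± 0.08, adjusted p = 0.0102). Of 6 tested markers of undifferentiated and reserve cells, 1 had a trend past the threshold each way, with a median of 0.01. Cd34 fell from 62.6 to 39.7 CPM (-0.48 ± 0.12, adjusted p = 0.00517), and Hes1, picked out after its values were seen, rose from 62.4 to 71.6 CPM (0.20 ± 0.06, adjusted p = 0.0236). The part of these marker changes in those of the 10 genes was not tested.

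**Figure D4:**
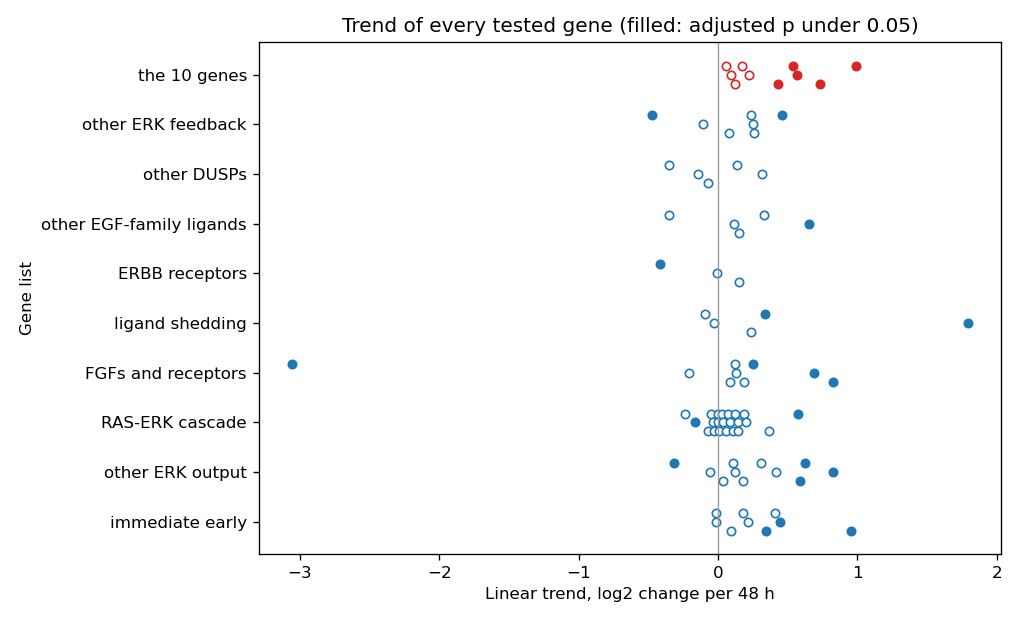
Linear trend per 48 h as log2 change (x axis) of every tested gene of the 10 and of 9 pathway lists (y axis), 1 point per gene; filled points passed at an adjusted p under 0.05. Hbegf is the farthest right of the 10 genes at 0.99, Timp3 lies at 1.79 in the shedding list and Fgf21 at -3.05 in the FGF list.

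On mm10, Dusp4 (ENSMUSG00000031530) lies at chr8:34807297-34819894, Dusp5 (ENSMUSG00000034765) at chr19:53529109-53542431, Dusp6 (ENSMUSG00000019960) at chr10:99263231-99267489, Spry1 (ENSMUSG00000037211) at chr3:37639947-37644598 and Spred1 (ENSMUSG00000027351) at chr2:117121374-117182279, all on the plus strand. Ereg (ENSMUSG00000029377) at chr5:91074622-91093646 and Areg (ENSMUSG00000029378) at chr5:91139599-91148432 are on the plus strand as well. Spry2 (ENSMUSG00000022114) at chr14:105891947-105896819, Spry4 (ENSMUSG00000024427) at chr18:38586247-38601415 and Hbegf (ENSMUSG00000024486) at chr18:36504927-36515805 are on the minus strand. All 10 are protein-coding. Dusp5, Spry1 and Ereg share 547, 710 and 141 exon bases with a transcript annotated on the opposite strand, and since the strand setting of the counting is not given, reads from both could have been added there.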

How the data were processed

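The authors deposited raw, unnormalized counts of reads per gene, as 1 table covering 27 libraries. The submitters' processing notes name Trim Galore 0.4.0, cutadapt 1.9.1, featureCounts and mm10. The aligner, the annotation release and the strand setting were not given in the sources used here. Per the labels' protocols, libraries were stranded total RNA without ribosomal RNA. GENCODE M21 gave names and positions for 20327 of 20446 genes.

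Genes passed filterByExpr (minimum count 10; 12687 kept, 7759 left out), with TMM scaling (factors 0.979 to 1.03) and a prior count of 2 for log CPM. Tests were edgeR 4.0.16 quasi-likelihood F tests (R 4.3.3) over all genes, with Benjamini-Hochberg adjusted p under 0.05: change over 9 time points, 60 against 12 h, 18 against 12 h, and, in models with a linear term and a 24 h wave, trend, rhythm and alternation. The 42 alternatives include DESeq2 1.42.0 and limma 3.58.1. Scripts were tested on simulated data.

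The 10 genes and the lists were chosen with earlier results of these data known. From each other list, up to 4 genes with the smallest p for change over the course were picked to be named (up to 2 if none passed). Of these picks, Dusp16, Birc5, Itgam, Cd68 and Cdh1 were not described. Also named were the 5 genes most like Dusp6 and Hbegf with a mean of at least 1 CPM.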

Additional observations from a re-analysis of the deposited data

How the results depend on the processing

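Of 2190 values of single genes under alternatives, 8 changed sign, all close to 0 and none past a threshold. A call was lost in 42 and gained in 41. Ranges of time point means and rhythm swings are among the 2190 and cannot be negative, so they could not change sign. Those 8 were Areg at 60 against 12 h without library 1 or 2 of 12 h or library 1 of 60 h (0.019, 0.03 and 0.082; range with 1 library left out -0.178 to 0.082), at 18 against 12 h without library 3 of 12 h or library 2 of 18 h (-0.045 and -0.003; range -0.045 to 0.191), and in the trend without the 12 h libraries or library 3 of 12 h (-0.026 and -0.027; range -0.027 to 0.144), and the trend of Spry1 without the 60 h libraries (-0.012). The cause was not tested. Median of ratios scaling, both other filters and limma-voom changed no call but that of Dusp4 at 60 against 12 h, lost without the low count filter (adjusted p = 0.0524) and with limma-voom (0.0522).

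Of the 10 genes, any change was called in 6 in each fit with 1 library left out. At 60 against 12 h the count of 4 became 1 with the 6 libraries alone and 1 to 4 with 1 library left out. At 18 against 12 h the count of 0 became 0 to 1. The trend count of 5 became 2 without the 12 h libraries (Dusp6 and Hbegf), 2 on time point means (Spry4 and Hbegf) and 4 to 6 with 1 library left out. The alternation count of 1 became 4 with DESeq2, 3 without the 12 h libraries, 0 on time point means, 0 without the 60 h libraries and 1 to 3 with 1 library left out. The rhythm count was 0 throughout.

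The replicate numbers were checked as a possible pairing: of 108 pairs of libraries with the same number, 91 deviated together (correlation over 0.1; lowest -0.056, median 0.331), and 26 of 27 libraries were closest to their own number, a hint from the data and not from the labels, which give only a number. With the replicate number as a block, calls among the 10 genes went from 6 to 9 for any change, from 4 to 7 at 60 against 12 h, from 0 to 4 at 18 against 12 h (Dusp4, Dusp6, Spry4 and Spred1), from 5 to 6 for the trend and from 1 to 7 for the alternation, and to 6 with the block and a quadratic term.

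Over all genes, calls for any change went from 2338 to 5166 with the block, 1189 without 12 h and 1500 without the libraries numbered 2, those at 60 against 12 h from 2033 to 3748 with the block, and those at 18 against 12 h from 645 to 1647 with the block, 126 with 6 libraries and 429 without library 1 of 18 h. Trend calls went from 2458 to 3844 with the block, 1181 without 12 h and 909 on means, and rhythm calls from 7 to 11 with DESeq2 and 0 on means. Alternation calls went from 98 to 166 with DESeq2, 382 with the block, 510 with the block and a quadratic term, 149 with that term alone, 174 without 12 h, 39 without 60 h, 27 without the libraries numbered 2, 0 on means, and 63 and 60 without library 1 or 3 of 42 h. The fits on means, without the libraries numbered 2, without 60 h and with the block and a quadratic term were chosen after seeing the data.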
